A study of Rattus norvegicus with 6 samples.

Results

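The genes of the egg coat and of the growth factors that the oocyte secretes were examined in whole ovaries of neonatal Wistar rats. The names searched were Zp1, Zp2, Zp3, Zp4, Gdf9, Bmp15 and Oosp1, and 6 of the 7 had a probe, 1 for each gene, out of 30367 probes and 15154 named genes on the array. No probe was matched to Oosp1, which was not analysed here. Pups of the LPS group were injected into the peritoneum with 0.05 mg/kg of LPS (lipopolysaccharide, from the outer membrane of Gram-negative bacteria, here Salmonella enterica) on PND 3 and again on PND 5, and pups of the saline group received the same volume of saline on the same days (PND, postnatal day). Ovaries of female pups were collected on PND 7, and the RNA of each sample was hybridized to 1 of 6 single-color Agilent arrays, 3 for each treatment. Both groups were injected and handled, so that no array represents untouched animals. According to the study's methods the ovaries came from fewer litters per treatment than there were arrays, and it was not stated which pups gave rise to which array, so p-values measure the spread between these samples.

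The zona pellucida is the glycoprotein coat of the oocyte, which is laid down while the follicle grows and which sperm must bind and cross. Its proteins are made by the oocyte itself from Zp1, Zp2, Zp3 and, in the rat but not in the mouse, Zp4. Gdf9 and Bmp15 encode growth factors of the transforming growth factor beta family that the oocyte releases to the granulosa cells around it, where they act on growth of the follicle and later on expansion of the cumulus. In the rat, primordial follicles form in the first days after birth, and by PND 7 the first of them have begun to grow. All of these genes are transcribed in oocytes under factors such as FIGLA, which binds E-boxes of zona genes, and NOBOX, which binds elements in the Gdf9 promoter.

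The promoters are shown because the 6 genes moved together from array to array, as given below. RefSeq windows of the GRCr8 assembly, which run from 250 bases before to 50 bases after the start, were given for 5 of the 6 genes. They lie at chr1:216992099-216992398 (minus strand) for Zp1, chr12:26334077-26334376 (minus strand) for Zp3, chr17:63703651-63703950 (minus strand) for Zp4, chr10:38096301-38096600 (plus strand) for Gdf9 and chrX:18840693-18840992 (plus strand) for Bmp15. No window was listed for Zp2. The windows of Zp3, Zp4 and Bmp15 lie at the outer start of the annotated gene. Those of Zp1 and Gdf9 lie inside it, at a start within chr1:216984343-216993882 and chr10:38090021-38100801. Each is printed on the strand of its gene, and capitals mark every E-box, searched as CANNTG.
Zp1: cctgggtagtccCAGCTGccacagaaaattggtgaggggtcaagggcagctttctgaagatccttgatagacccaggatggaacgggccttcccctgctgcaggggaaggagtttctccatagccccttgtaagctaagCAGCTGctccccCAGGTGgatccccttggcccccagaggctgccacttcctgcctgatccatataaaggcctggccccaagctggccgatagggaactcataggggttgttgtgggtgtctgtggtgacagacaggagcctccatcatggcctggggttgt
Zp3: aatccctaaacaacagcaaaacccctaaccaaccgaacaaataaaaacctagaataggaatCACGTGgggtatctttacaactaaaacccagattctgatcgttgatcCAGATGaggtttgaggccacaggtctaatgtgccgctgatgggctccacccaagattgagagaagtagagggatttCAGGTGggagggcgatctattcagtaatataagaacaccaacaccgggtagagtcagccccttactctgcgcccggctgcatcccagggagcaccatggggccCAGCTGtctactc
Zp4: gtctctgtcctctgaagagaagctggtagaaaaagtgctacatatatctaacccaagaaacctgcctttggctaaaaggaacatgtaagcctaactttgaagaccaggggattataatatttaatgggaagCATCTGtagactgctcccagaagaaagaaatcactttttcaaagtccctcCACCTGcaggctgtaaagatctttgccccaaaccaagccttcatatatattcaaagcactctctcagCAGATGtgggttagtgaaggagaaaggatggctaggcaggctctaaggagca
Gdf9: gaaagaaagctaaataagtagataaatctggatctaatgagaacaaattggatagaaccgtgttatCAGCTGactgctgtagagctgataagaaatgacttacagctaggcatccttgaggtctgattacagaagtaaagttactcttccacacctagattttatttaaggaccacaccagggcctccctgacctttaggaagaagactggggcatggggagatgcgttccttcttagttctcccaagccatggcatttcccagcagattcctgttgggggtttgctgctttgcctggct
Bmp15: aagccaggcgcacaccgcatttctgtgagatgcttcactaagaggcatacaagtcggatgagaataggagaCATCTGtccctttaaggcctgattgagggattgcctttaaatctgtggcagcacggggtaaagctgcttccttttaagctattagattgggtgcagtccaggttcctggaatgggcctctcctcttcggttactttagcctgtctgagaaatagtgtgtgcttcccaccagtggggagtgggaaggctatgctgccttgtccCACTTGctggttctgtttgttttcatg
The windows held 3, 4, 3, 1 and 2 E-boxes for Zp1, Zp3, Zp4, Gdf9 and Bmp15. At least 1 E-box was present in 72.1% of 33469 RefSeq promoters of the same length, at least 3 in 16.6% and at least 4 in 5.79%. The E-box variant CACGTG, which overlaps the general motif, occurred in Zp3 alone, where it starts 189 bases before the start site, and in 6.42% of all promoters. The TATA box TATAAA, searched on both strands like the others, occurred in Zp1 alone among the 5, against 14.2% of all promoters. The NOBOX elements TAATTG and TAATTA occurred in none of the 5 windows and in 8.2% and 5.36% of all promoters. These counts describe letters in the windows only.

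The 6 arrays shared 1 slide and 1 scan. One row of the slide held LPS replicate 1 with the 3 saline arrays, and the other row held LPS replicates 2 and 3. Between 66.3% and 76.0% of the spots that were not controls were well above background. Markers of the ovary were present, with 13 of 16 oocyte markers and 8 of 9 granulosa cell markers well above background, by at least 1 unflagged spot, on every array. Of the adrenal cortex and medulla markers, 6 of 6 and 8 of 8 were higher on saline replicates 2 and 3 than on the other 4 arrays, and of the oviduct and surface epithelium markers, 5 of 5 were higher on LPS replicate 1 and saline replicate 1 than on the other 4.

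Neither the zona genes nor the growth factor genes differed between LPS-treated and saline-treated ovaries beyond the spread between arrays. All 6 had a higher mean in the LPS group, from 1.16-fold for Zp1 to 1.69-fold for Bmp15, but in each case the groups overlapped. The place of Bmp15 as the largest depended on the background correction. It was also lost with quantile normalization, with the slide row as a block and without LPS replicate 3. What set the arrays apart was a pattern shared by all 6 genes: LPS replicates 2 and 3 lay above the 3 saline arrays, and LPS replicate 1 lay below the saline arrays or within their range. Because whole ovaries were used, differences in the number of oocytes, in the RNA of each oocyte and in other tissue within the sample cannot be told apart in these values.

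In the following, a level is the log2 signal of a probe minus the 75th percentile of the log2 signals of its array, so that 0 marks that percentile and 1 unit is a 2-fold step. Levels of different probes cannot be set against each other. All 6 probes stood well above background throughout, with no spot flagged or saturated.

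Zp1 encodes the zona protein that crosslinks the filaments of the coat. Its level (probe A_64_P045363) was -0.79, 1.15 and 0.87 on LPS replicates 1, 2 and 3 and -0.18, 0.17 and 0.61 on saline replicates 1, 2 and 3. LPS replicate 1 was the lowest and LPS replicate 2 the highest of all arrays, and the groups overlapped. The group means were 0.41 ± 1.05 (SD, n = 3) for LPS and 0.20 ± 0.40 (SD, n = 3) for saline. The log2 fold change was 0.21 (standard error 0.52, 95% interval -1.04 to 1.47), with an adjusted p of 0.957 from limma. The sign of this difference rested on 2 arrays, since it was -0.16 without LPS replicate 2 and -0.02 without LPS replicate 3.

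Zp2 encodes a filament protein to which sperm bind and which is cleaved after fertilization. Its level (probe A_44_P124733) was 1.62, 2.60 and 2.37 on LPS replicates 1, 2 and 3 and 1.58, 1.33 and 1.87 on saline replicates 1, 2 and 3. Here LPS replicate 1 lay inside the range of the saline arrays and the other LPS arrays lay above it. The log2 fold change was 0.60 (standard error 0.30, 95% interval -0.11 to 1.31), from means of 2.20 ± 0.51 (SD, n = 3) and 1.59 ± 0.27 (SD, n = 3). It did not pass the test, with an unadjusted p of 0.0839 and an adjusted p of 0.374 from limma. Among the 6 genes this probe varied least, with a 2.41-fold range over all arrays.

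Zp3 encodes the partner of Zp2 in the filaments of the coat. Its level (probe A_64_P044241) was 3.48, 4.97 and 4.63 on LPS replicates 1, 2 and 3 and 4.02, 3.76 and 4.54 on saline replicates 1, 2 and 3. LPS replicate 1 was below every saline array, whereas LPS replicate 3 exceeded the highest saline array by a small margin. LPS exceeded saline by 0.25 on the log2 scale, with a standard error of 0.42 and a 95% interval from -0.75 to 1.25 (limma, adjusted p = 0.912), from means of 4.36 ± 0.78 (SD, n = 3) and 4.11 ± 0.40 (SD, n = 3). It was -0.05 without LPS replicate 2.

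Zp4 encodes a protein related to Zp1 that the rat has kept in its egg coat. Its level (probe A_64_P032450) was 1.17, 3.19 and 2.79 on LPS replicates 1, 2 and 3 and 1.50, 1.84 and 2.61 on saline replicates 1, 2 and 3. The order of the arrays was that of Zp1, with LPS replicate 1 lowest and LPS replicate 2 highest. LPS exceeded saline by 0.40 on the log2 scale, with a standard error of 0.56 and a 95% interval from -0.95 to 1.74 (limma, adjusted p = 0.883), from means of 2.39 ± 1.07 (SD, n = 3) and 1.99 ± 0.57 (SD, n = 3). It was 1.01 without LPS replicate 1 and -0.0057 without LPS replicate 2.

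Gdf9 encodes a growth factor that follicles need to grow beyond the primary stage. Its level (probe A_43_P12097) was 0.42, 2.55 and 2.33 on LPS replicates 1, 2 and 3 and 0.90, 1.12 and 1.99 on saline replicates 1, 2 and 3. Among the 6 genes it had the widest range over the arrays, 4.36-fold, and again the lowest and the highest array were both of the LPS group. LPS exceeded saline by 0.43 on the log2 scale, with a standard error of 0.60 and a 95% interval from -1.01 to 1.87 (limma, adjusted p = 0.881), from means of 1.77 ± 1.17 (SD, n = 3) and 1.34 ± 0.57 (SD, n = 3). It was 1.10 without LPS replicate 1 and 0.04 without LPS replicate 2.

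Bmp15 encodes the close relative of Gdf9 with which it forms heterodimers, and lies on the X chromosome. Its level (probe A_64_P112694) was -3.08, -1.95 and -1.74 on LPS replicates 1, 2 and 3 and -3.21, -3.48 and -2.33 on saline replicates 1, 2 and 3. LPS replicates 2 and 3 were above all saline arrays, and LPS replicate 1 lay between saline replicates 1 and 3. LPS exceeded saline by 0.75 on the log2 scale, with a standard error of 0.45 and a 95% interval from -0.31 to 1.82 (limma, adjusted p = 0.500), from means of -2.26 ± 0.72 (SD, n = 3) and -3.01 ± 0.60 (SD, n = 3). It was 1.17 without LPS replicate 1, and it fell to 0.41 with normexp background correction and 0.26 without background correction, where Zp2 and Zp4, each at 0.57, were the largest. The probe had 2 spots, whose coefficient of variation was 21.0% on saline replicate 1 and 29.0% on saline replicate 2, against at most 4.93% for the zona and Gdf9 probes with 2 spots.

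**Figure D1:**
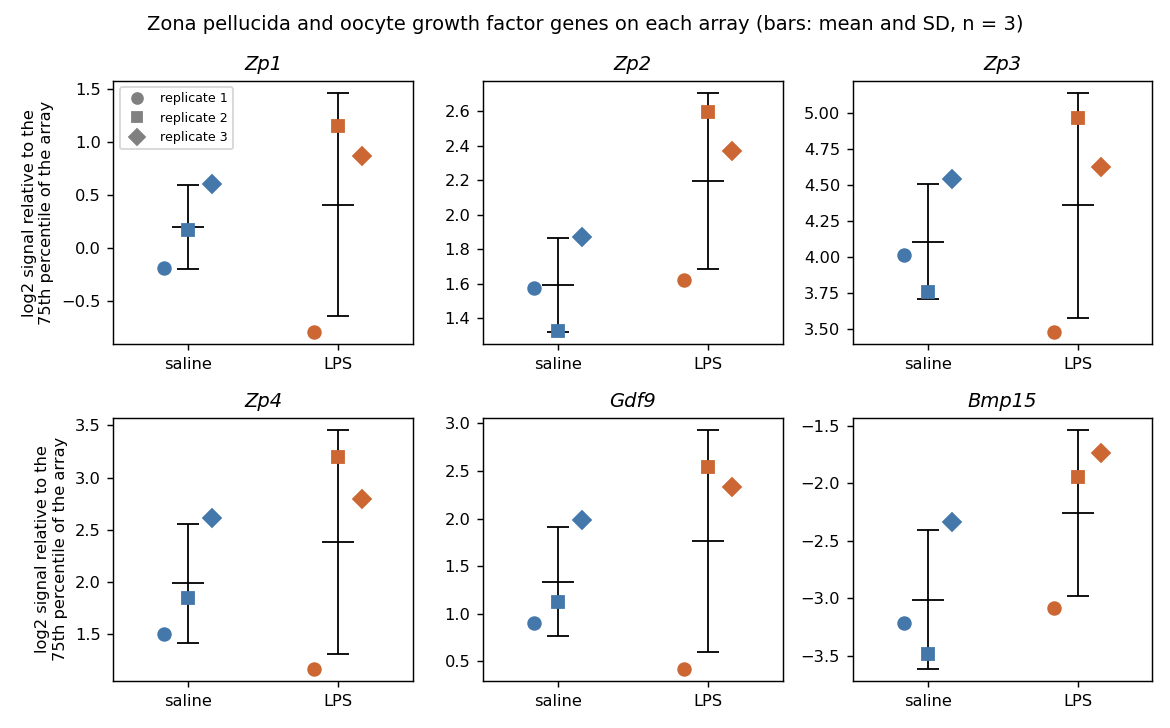
Level of each zona pellucida and growth factor gene on each array, as log2 signal minus the 75th percentile of the array (vertical axes differ between panels). Points are arrays, shaped by replicate number, and bars are the mean and SD of 3 arrays. In all 6 panels LPS replicates 2 and 3 lie above every saline point, and LPS replicate 1 is the lowest of the LPS points.

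Of the 6 genes, 0 reached a 2-fold difference together with an unadjusted p under 0.05, a criterion that 1.69% of the 30367 probes met in either direction (0.613% as higher in LPS). None had an unadjusted p under 0.05 in limma, against 16.5% of all probes (2.46% higher and 14.1% lower in LPS), and 0 passed after Benjamini-Hochberg adjustment, as did 0% of all probes. A two-group analysis of variance run here on each probe, by which 0.487% of all probes met the 2-fold criterion, also called 0 of the 6. The groups overlapped for all 6, while 23.4% of all probes, dim ones included, had groups that did not overlap (5.02% with LPS higher). In the two-sided exact permutation test of a single gene, which with 3 arrays against 3 cannot give a p below 0.1, p was 0.2 for Zp2 and Bmp15, 0.7 for Zp3, Zp4 and Gdf9 and 0.8 for Zp1. The median log2 fold change over the 6 genes was 0.41, against -0.04 over all probes and 0.02 over the 18116 probes well above background on every array. A positive difference was found for 6 of the 6 genes and for 54.0% of these brighter probes. The intervals are wide and for each gene hold both 0 and a rise of more than 2-fold, so that a difference of that size was neither shown nor excluded by these arrays.

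The arrays fell into nearly the same order for each gene. LPS replicate 2 was the highest array for 5 of the 6 genes and LPS replicate 3 for the sixth, Bmp15, and saline replicate 3 ranked 4 from the lowest for every gene. LPS replicate 1 was below all saline arrays for Zp1, Zp3, Zp4 and Gdf9 and within their range for Zp2 and Bmp15. Both LPS replicates 2 and 3 were above all saline arrays for 6 of the 6 genes, as they were for 18.8% of these brighter probes. After centering each probe on its own mean, the average of the 6 genes was -0.79, 0.83 and 0.62 on LPS replicates 1, 2 and 3 and -0.49, -0.47 and 0.29 on saline replicates 1, 2 and 3. The spread within groups was large for an array probe, since the pooled SD of each gene lay between the 77.4 percentile (Zp2) and the 98.0 percentile (Gdf9) of these brighter probes, whose median was 0.25 on the log2 scale.

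Arrays that carried the same replicate number deviated together over all probes. Over probes well above background the correlation of deviations was 0.463, 0.240 and 0.312 for numbers 1, 2 and 3, but LPS replicate 2 correlated by 0.391 with saline replicate 3 and LPS replicate 3 by 0.303 with saline replicate 2, so that numbers 2 and 3 were not separated there. The LPS array was higher than the saline array of its number for 2 of the 6 genes with number 1, for 6 with number 2 and for 6 with number 3. For Gdf9 the differences of the pairs were -0.48, 1.43 and 0.34, and for Bmp15 they were 0.13, 1.54 and 0.59. The pair with number 2 thus had the widest difference for both growth factors. With the number as a block 0 of the 6 genes and 2.07% of all probes met the 2-fold criterion, and the adjusted p from limma ranged from 0.267 for Bmp15 to 0.814 for Zp1.

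The count of genes called depended on LPS replicate 1. Without it, Zp4, Gdf9 and Bmp15 met the 2-fold criterion in limma as higher in LPS, with 1.01, 1.10 and 1.17 on the log2 scale. The criterion was then met by 2.99% of all probes in either direction and by 1.01% as higher. The groups no longer overlapped for any of the 6, with LPS higher, as for 43.4% of all probes in either direction and 13.5% with LPS higher. For the 6 genes this restates that LPS replicates 2 and 3 lay above all saline arrays. None of the 6 genes and 0% of all probes passed after adjustment, with adjusted p from 0.196 to 0.222 in limma for the 6 genes. When both arrays with number 1 were left out, a choice made after the values had been seen, the log2 fold changes ranged from 0.63 for Zp1 to 1.06 for Bmp15, and Bmp15 alone was called, beside 4.5% of all probes (1.06% as higher). The groups then did not overlap for the 6 genes, which follows from the same order of arrays, nor for 60.8% of all probes (23.3% with LPS higher). After adjustment 0 of the 6 but 1.35% of all probes passed. Without normalization between arrays Bmp15 was also called, beside 4.05% of all probes, with a value of 1.13. Within the slide row that held both treatments, LPS replicate 1 against the saline arrays gave -0.99 for Zp1, 0.03 for Zp2, -0.63 for Zp3, -0.82 for Zp4, -0.92 for Gdf9 and -0.07 for Bmp15. The other row held LPS arrays only and gives no comparison, and the part of the slide row in these differences was not tested.

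**Figure D2:**
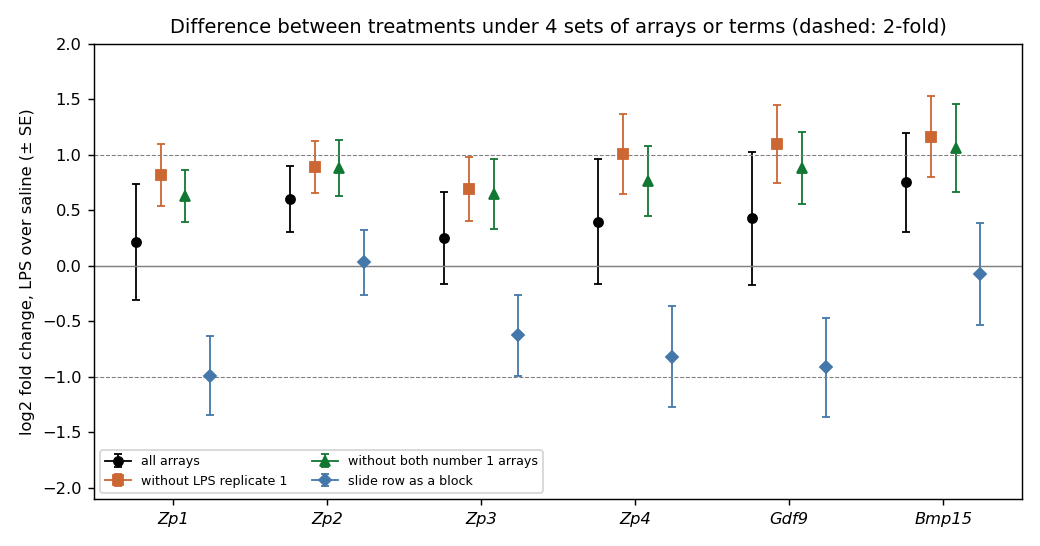
Log2 fold change of each gene, LPS over saline, with its standard error from limma, for all arrays, without LPS replicate 1, without both arrays numbered 1, and with the row of the slide as a block. With all arrays the values run from 0.21 for Zp1 to 0.75 for Bmp15, and in the last fit they are negative for all genes but Zp2.

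Markers of oocytes and of granulosa cells moved with the 6 genes. Other oocyte markers followed the same order of arrays, with a median, after centering, of -0.71, 0.74 and 0.58 on LPS replicates 1, 2 and 3 and -0.48, -0.40 and 0.29 on saline replicates 1, 2 and 3 over the 13 well above background on all arrays. LPS replicates 2 and 3 exceeded all saline arrays for 11 of these 13. Among the brightest, Npm2, which encodes a chromatin chaperone of the egg, was at 0.38, 2.44 and 2.11 on LPS replicates 1, 2 and 3 and at 0.65, 0.91 and 1.63 on saline replicates 1, 2 and 3. Padi6, which encodes a component of the cytoplasmic lattices of the oocyte, was at 2.94, 4.99 and 4.59 in the LPS group and 3.63, 4.03 and 4.52 in the saline group, here and below in the order of the replicate numbers. The germ cell factor gene Pou5f1, also among the 3 brightest, did not follow, at 1.53, 1.42 and 1.11 in the LPS group and 1.56, 0.96 and 1.41 in the saline group. When all values were scaled to the median of the 13 oocyte markers, a scaling added after the values had been seen, the log2 fold changes ranged from -0.34 for Zp1 to 0.19 for Bmp15, with a median over the 6 genes of -0.14.

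Granulosa cell markers had a like profile, with a median of -0.84, 0.75 and 0.32 on LPS replicates 1, 2 and 3 and -0.30, -0.24 and 0.18 on saline replicates 1, 2 and 3 over the 8 well above background on all arrays. LPS replicates 2 and 3 exceeded all saline arrays for 5 of these 8, against 11 of 13 oocyte markers. Among the brightest, Amh and Inha, an inhibin subunit gene, were higher on saline replicate 3 than on LPS replicate 3. Fst, the follistatin gene and also among the brightest, was lower there, at 2.80 on saline replicate 3 and 2.97 on LPS replicate 3. The summed level, the log2 of the summed signals of all 9 measured, ranged from 4.52 to 6.22 in the LPS group and from 5.22 to 5.95 in the saline group. Oviduct and surface epithelium markers ran the other way on the number 1 arrays. Their summed level over the 5 measured (Pax8, Foxj1, Krt8, Krt18 and Epcam, all well above background on every array) was 5.45 on LPS replicate 1 and 5.40 on saline replicate 1, and from 3.96 to 4.61 on the other arrays. The summed level of the 6 adrenal cortex markers was 7.30 and 7.72 on saline replicates 2 and 3 and from 0.88 to 1.73 on the others, and that of the 8 adrenal medulla markers 6.56 and 5.85 against 1.80 to 2.67. Cyp11b1 of the cortex list and Chgb of the medulla list were well above background on saline replicates 2 and 3 alone. Of the cortex and medulla markers, 3 of 6 and 4 of 8 were well above background on every array. Saline replicates 2 and 3, which both carried the adrenal transcripts, differed from each other for all 6 zona and growth factor genes, with replicate 3 higher. Macrophage markers well above background on all arrays had medians after centering of 0.16, 0.15 and 0.13 in the LPS group. In the saline group these were 0.06, -0.09 and -0.23. For stroma and theca markers the medians were -0.16, 0.25 and 0.20 in the LPS group and 0.00063, -0.22 and -0.15 in the saline group. The part of the other tissues in the differences between arrays was not tested.

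**Figure D3:**
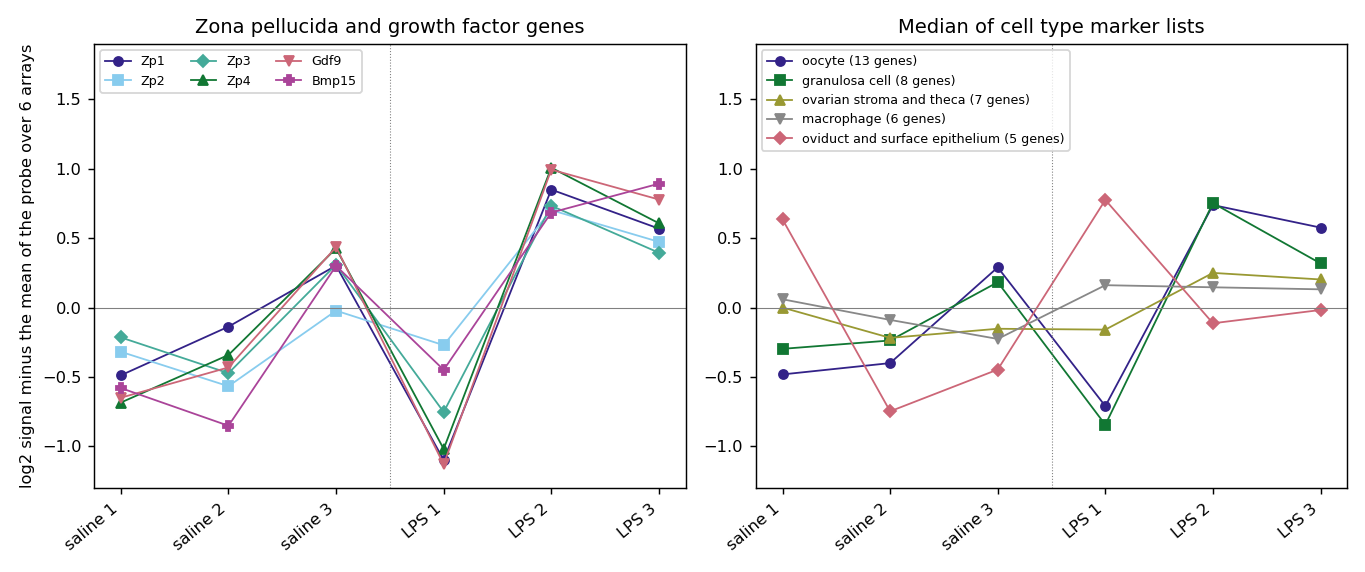
Left, the 6 genes on each array as log2 signal minus the mean of the probe over 6 arrays; right, the median of the same quantity over cell type markers well above background on all arrays (lines join the arrays for reading only). The 6 genes and the oocyte and granulosa cell markers are low on LPS replicate 1 and high on LPS replicates 2 and 3, while the oviduct and surface epithelium markers are highest on LPS replicate 1 and saline replicate 1, at 0.78 and 0.64.

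Transcription factors that act on these genes stood on the same side. Of 7 factors listed, 4 had a probe, all well above background on every array. At the 2-fold criterion 0 were called, beside 1.69% of all probes. At that share, 0 called in so short a list is no result about its genes, here and in the lists below. The median log2 fold change was 0.43, against 0.02 over all probes well above background on every array. Nobox, a homeobox factor of the oocyte, was at -1.64, -0.27 and -0.45 in the LPS group and -1.25, -1.34 and -0.68 in the saline group, a log2 difference of 0.30 with a standard error of 0.40. The difference was 0.48 (standard error 0.32) for Lhx8, a LIM homeobox factor of the oocyte, and 0.76 (standard error 0.54) for Sohlh2, a helix-loop-helix factor of germ cells. For Gata4, which is known mainly from granulosa cells, it was 0.37 (standard error 0.54). For all 4, LPS replicate 1 was the lowest LPS array and LPS replicates 2 and 3 were above every saline array, as for the zona and growth factor genes. No probe was matched to Figla, Sohlh1 or Taf4b, which were not analysed here.

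Gdf9 and Bmp15 signal through the type II receptor encoded by Bmpr2, type I receptors such as those of Tgfbr1 and Bmpr1b, and the Smad proteins. Of the 13 genes listed, 13 had a probe and 0 met the 2-fold criterion, beside 1.69% of all probes. The median log2 fold change was 0.08, and 0.27 over the 9 well above background on every array. At an unadjusted p under 0.05 without a limit on size 0 were higher and 3 of 13 were lower, as 14.1% of all probes were. These were Bmpr2, Smad3 and Smad9, named here after their values were seen, and of these Smad3 and Smad9 were well above background on no array. Bmpr2 was at -1.95, -1.84 and -2.26 in the LPS group and -1.20, -1.64 and -1.66 in the saline group. All LPS arrays lay below all saline arrays, while 23.4% of all probes had groups that did not overlap in either direction. The log2 difference was -0.51 with a standard error of 0.21, which did not pass after adjustment (limma, adjusted p = 0.298). The brightest of the list were Smad5, a transducer of BMP signals, with 0.32 (standard error 0.16), the inhibitory Smad6 with 0.37 (standard error 0.29), Tgfbr1 with 0.27 (standard error 0.20) and the common mediator Smad4 with 0.30 (standard error 0.20). The smallest adjusted p among these 4 was 0.376 in limma, for Smad5.

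Genes of granulosa and cumulus cells that are known to respond to Gdf9 or Bmp15 formed a further list. Of 12 listed, 12 had a probe, 8 of them well above background on every array. At the 2-fold criterion 0 were called, beside 1.69% of all probes. The median log2 fold change was 0.17, against -0.04 over all probes. At an unadjusted p under 0.05 alone 3 of 12 were higher (Ptx3, Kitlg and Has2), beside 2.46% of all probes, and 1 was lower (Grem1, well above background on no array), beside 14.1%. These 4 are named after their values were seen. The list gives no direction of response, and the part of Gdf9, Bmp15 or other signals in these differences was not tested. Kitlg, which encodes the Kit ligand that granulosa cells send to the oocyte, was at 1.19, 1.41 and 1.37 in the LPS group and 0.54, 0.76 and 0.97 in the saline group. The groups did not overlap, LPS replicate 1 included, as for 5.02% of all probes with LPS higher. LPS exceeded saline by 0.57 with a standard error of 0.18 (limma, adjusted p = 0.271). These values are from the brightest of 3 Kitlg probes, and the other probes are not given here. Ptx3, which encodes a matrix protein of the expanding cumulus, was at -0.83, -1.22 and -1.17 in the LPS group and -1.56, -1.75 and -2.03 in the saline group. The log2 difference was 0.70 with a standard error of 0.20 (limma, adjusted p = 0.271), from the brighter of 2 Ptx3 probes. Has2, a hyaluronan synthase gene of the same matrix, was well above background on 3 of the 6 arrays. The brightest genes of the list were Amh, the anti-Müllerian hormone gene, with -0.29 (standard error 0.59), Fst, the follistatin gene, with 0.01 (standard error 0.39), the inhibin subunit gene Inhbb with 0.29 (standard error 0.63) and Kitlg. Of the 8 genes well above background on every array, 5 had LPS replicate 1 below all saline arrays, as Zp1, Zp3, Zp4 and Gdf9 had, and Amh, Fst and Inhbb were among them.

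Genes that process the zona and growth factor proteins formed the last list. Of 7 listed, 6 had a probe, all well above background on every array. At the 2-fold criterion 0 were called, beside 1.69% of all probes, and the median log2 fold change was 0.05. Astl, which encodes the oocyte protease ovastacin that cleaves the Zp2 protein, was at -0.62, 1.09 and 0.92 in the LPS group and -0.32, -0.02 and 0.44 in the saline group. Its arrays lay in the order of Zp1, and the log2 difference was 0.43 with a standard error of 0.48. The proprotein convertase gene Furin had -0.22 (standard error 0.17), its relative Pcsk6 had 0.38 (standard error 0.29), and Mgat1, a glycosyltransferase gene of N-glycan synthesis, had -0.10 (standard error 0.18). No probe was matched to Pcsk5, which was not analysed here.

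**Figure D4:**
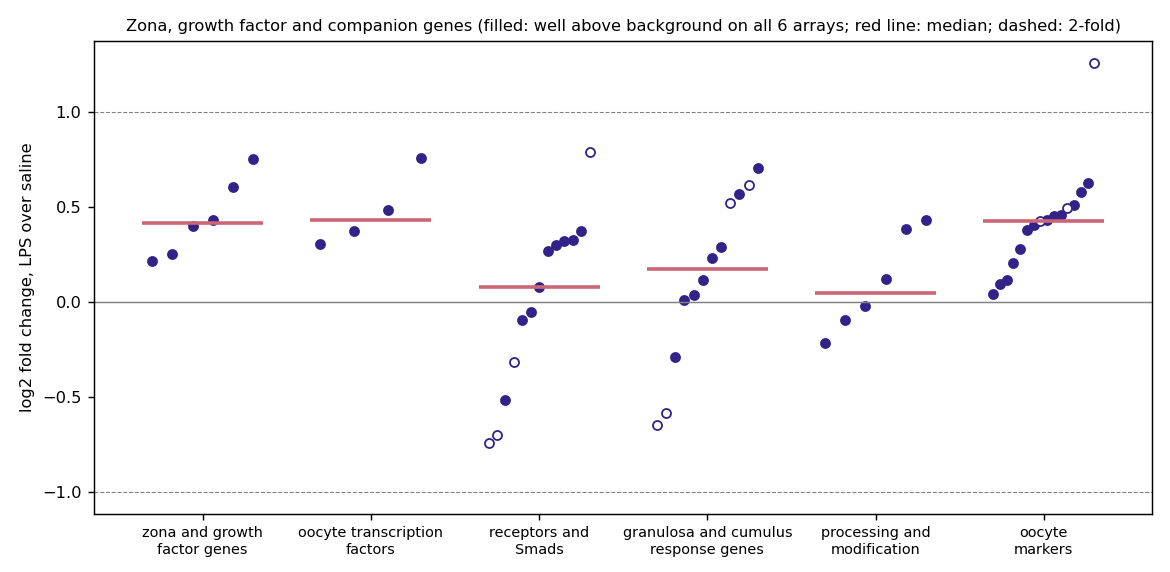
Log2 fold change, LPS over saline, of the 6 zona and growth factor genes, of the 4 lists of companion genes and of oocyte markers (1 point a gene, filled where well above background on every array, with the median as a red line). The 6 genes lie between 0.21 and 0.75 with a median of 0.41, and the 1 point beyond 2-fold is Sycp3, a meiotic chromosome gene well above background on 1 array.

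The genes whose array values were most like the mean profile of the 6 genes were found by the root mean square difference over the 6 arrays, after each probe was centered on its own mean. Over 11560 named probes well above background on every array the median of this difference was 0.64 on the log2 scale. The 6 genes themselves lay between 0.15 (Zp3) and 0.27 (Zp2). The nearest gene outside the 6 was Mos, which encodes the kinase that holds the mature egg in meiotic arrest, with a difference of 0.078. It was followed by Gtsf2 with 0.082, Oas1h with 0.084, Ankrd2 with 0.092 and Lin28a, which encodes a binding protein of the let-7 microRNA precursor, with 0.096. Tmem184a and C2h1orf56 each had 0.103, Astl had 0.106, Dbndd1 had 0.110 and Spire2, which encodes an actin nucleator, had 0.112. Mos was at -2.52, -0.75 and -0.88 in the LPS group and -2.05, -2.01 and -1.22 in the saline group. All 10 had positive log2 fold changes, from 0.36 for Spire2 to 0.50 for Dbndd1. This sign follows from their choice by likeness to a profile that is itself higher in LPS, and is no separate result. The smallest adjusted p among them was 0.706 in limma, for Dbndd1. With 6 arrays this likeness is a description, since all genes share the same samples and scaling.

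**Figure D5:**
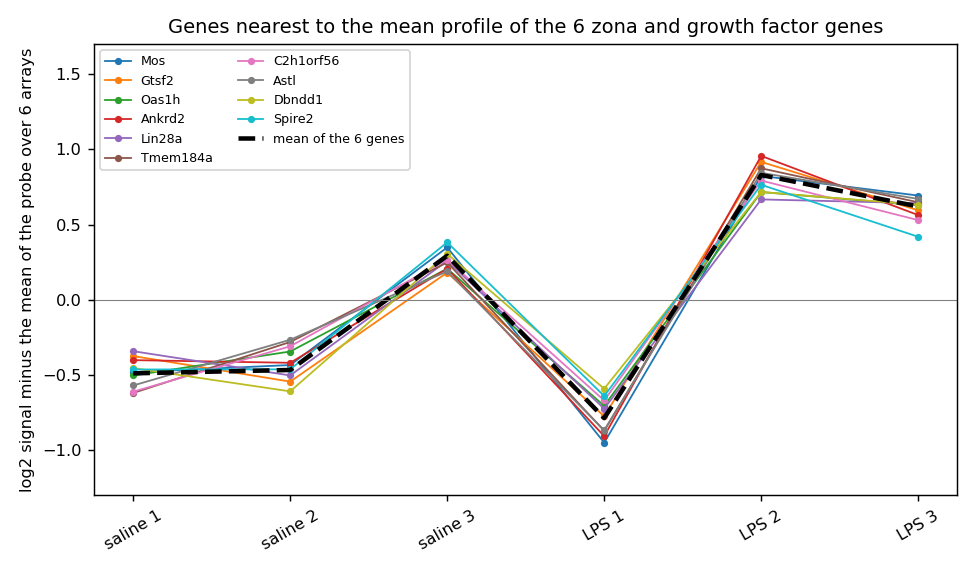
The 10 genes nearest to the mean profile of the 6 zona and growth factor genes (dashed), as log2 signal minus the mean of the probe over 6 arrays, on each array (lines join the arrays for reading only). All run from a low on LPS replicate 1 to highs on LPS replicates 2 and 3, and the mean profile spans 1.62 on the log2 scale.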

How the data were processed

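Ovarian RNA of 3 LPS-treated and 3 saline-treated samples was measured on single-color arrays. The files that the authors deposited hold spot intensity values and quality flags of Feature Extraction 10.5.1.1, 1 file per array, and a joint table whose entries match the processed signal to within 0.497%. The processed signal is background-subtracted and holds a surrogate for spots too dim to measure. No array test is named in the methods, which give a 2-fold difference and a p under 0.05.

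From these values the log2 signal minus the 75th percentile of its array was computed. Flagged spots were left out, log2 values were averaged over the spots of a probe, and at least 2 unflagged arrays a group were required. The functions lmFit and eBayes of limma 3.58.1 (R 4.3.3) were run over 30367 probes, with Benjamini-Hochberg adjustment. The files' gene name column was empty, so 17998 probes were named through their RefSeq accession with a GRCr8 table, which was used for names and promoters only. Of several probes for a companion gene or marker the brightest was used. The procedure was tested on simulated data.

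The genes examined and the companion and marker lists were chosen with earlier results of these data known. The genes named are all of the 6, up to 4 brightest genes of each companion list, 3 brightest of a marker list where given, and the 10 nearest by profile. Other genes were named after their values were seen, namely Bmpr2, Smad3, Smad9, Ptx3, Has2, Grem1, Sycp3, Cyp11b1 and Chgb, together with the 5 epithelial markers. Array groups and numbers came from the labels. The deviations of same-numbered arrays from the means of their groups correlated over 30364 probes by 0.298, 0.215 and 0.254 for numbers 1, 2 and 3, and only these values pair the arrays. Between numbers 2 and 3 the correlation was 0.160 and 0.0678. The 20 alternatives covered background, scaling, spots, test, number, slide row and each array left out. The number of arrays limits precision.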

Additional observations from a re-analysis of the deposited data

How the results depend on the processing

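Of 20 alternatives, 2 of them added after the values had been seen, Zp2 kept its direction in all, and the sign turned in 1 for Bmp15, 2 for Gdf9, 3 each for Zp3 and Zp4 and 4 for Zp1. The filter on dim probes, the trend and robust options of limma, the analysis of variance and the replicate block leave the log2 fold change unchanged. In those alternatives the sign could not turn. With the slide row as a block the log2 fold changes were -0.072 for Bmp15, -0.92 for Gdf9, -0.99 for Zp1, -0.63 for Zp3 and -0.82 for Zp4, with a median of -0.72. In that fit the contrast comes from the 1 row with both treatments, which held 1 LPS array. Scaled to the oocyte markers, the values were -0.13 for Gdf9, -0.34 for Zp1, -0.31 for Zp3 and -0.16 for Zp4, with a median of -0.14, and the median of all probes was -0.60. Bmp15 passed the 2-fold and unadjusted p criterion without normalization (1.13), where the median of all probes was 0.34, and without both number 1 arrays (1.06), so that 1 gene was called under each. The direction of calls over all probes turned with the scaling, from 186 higher and 327 lower to 1003 higher and 227 lower without normalization.

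Leaving out 1 array at a time, the log2 fold change lay between 0.49 and 1.17 for Bmp15, 0.039 and 1.10 for Gdf9, -0.16 and 0.82 for Zp1, 0.40 and 0.89 for Zp2, -0.052 and 0.69 for Zp3, and -0.0057 and 1.01 for Zp4, and the median between 0.02 and 0.95. The highest values were those without LPS replicate 1. The number of genes called lay between 0 and 3, with 3 without LPS replicate 1, beside 2.99% of all probes, and after adjustment between 0 and 0. The number whose groups did not overlap lay between 0 and 6. It was 6 without LPS replicate 1, beside 43.4% of all probes, and 6 without both number 1 arrays, beside 60.8%. Without saline replicate 3 it was 2 (Zp2 and Bmp15). The share of all probes was not computed there, so this count is no result about these genes. The causes of these changes were not tested. The replicate block, with adjusted p from 0.267 to 0.814 in limma, changed no call. The mean of all probes of a gene was not run, as each gene had 1 probe. Bmp15 was the dimmest of the 6 relative to background, and its value was 0.41 with normexp and 0.26 without background correction.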
